A study of Mus musculus with 8 samples.

Results

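Trimethylation of histone H3 at lysine 27 (H3K27me3) at promoters was compared between naive CD4+ T cells of Ezh1 -/- mice (Ezh1 KO) and of WT mice. The unit is a promoter window, a stretch of 6 kb centred on a transcription start site, for which the deposited files give the summed H3K27me3 coverage per M reads (the area) and the coverage in its highest 25 bp bin (the peak). Windows were joined between both libraries by gene symbol and entered the comparison when the area was at least 1 in the higher library. That left 17972 of 18603 windows. Of the 631 others, 534 were at 0 in both libraries and 97 lay between 0 and 1. Just inside the limit were Defa-rs7, at 0.901 in the Ezh1 KO and 1.04 in WT, and Cdkn2d, at 1.05 and 0.682 in that order. Just outside it was ENSMUSG00000072818, at 0.485 in the Ezh1 KO and 0.985 in WT.

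Lymph nodes of 129SV/B6 mice were the source of the cells, from which the naive CD4+ fraction was purified. Each of 4 genotypes gave 1 H3K27me3 ChIP-seq and 1 RNA-seq library. Beside Ezh1 -/- and WT, these were Ezh1 -/- mice that also carried Ezh2 fl/fl and CD4-cre (double KO), and mice with Ezh2 fl/fl CD4-cre alone (Ezh2 KO). The CD4-cre transgene removes floxed Ezh2 sequence in T cells from the thymus onward, whereas Ezh1 -/- is carried by every cell of the animal. The age and number of mice behind a library are not given in the sources used here. With 1 library a side there is no spread between replicates, so none of the differences was tested, and "higher" and "lower" compare 1 library with 1 other.

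Polycomb repressive complex 2 (PRC2) contains either EZH1 or EZH2 as its enzyme and places methyl groups on H3K27 together with SUZ12, EED and RBBP4 or RBBP7. EZH2 is the enzyme of dividing cells, while EZH1 is also made in resting cells and is known as the weaker methyltransferase of the pair. In mammals the mark lies over CpG-rich promoters of silent developmental genes and is read by PRC1, and in T cells it also lies over genes of other lineages and of effector fates.

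The sequences below are given because the difference between the libraries moved with the GC content of a window, and these 4 windows differ in it. Each is the 200 bases before an annotated start, on the coding strand of the mm9 genome, with CpG dinucleotides in capitals. Bcl11b and Sall1 were the windows at least 2-fold higher in the Ezh1 KO, Coil had the largest difference downward, and Chi3l4 was the WT-marked window of lowest GC content among those with an exact annotated start, chosen after its values were seen. No annotated exon overlaps any of them.
Bcl11b, mm9 chr12:109241813-109242012, minus strand: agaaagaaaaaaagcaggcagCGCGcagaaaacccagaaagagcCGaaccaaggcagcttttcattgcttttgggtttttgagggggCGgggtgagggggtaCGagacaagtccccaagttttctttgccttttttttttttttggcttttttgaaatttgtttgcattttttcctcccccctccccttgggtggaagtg
Sall1, mm9 chr8:91568062-91568261, minus strand: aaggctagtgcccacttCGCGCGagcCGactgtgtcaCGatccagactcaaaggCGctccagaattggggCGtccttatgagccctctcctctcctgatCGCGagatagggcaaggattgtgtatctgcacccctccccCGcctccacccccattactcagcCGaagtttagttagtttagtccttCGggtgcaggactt
Coil, mm9 chr11:88831366-88831565, plus strand: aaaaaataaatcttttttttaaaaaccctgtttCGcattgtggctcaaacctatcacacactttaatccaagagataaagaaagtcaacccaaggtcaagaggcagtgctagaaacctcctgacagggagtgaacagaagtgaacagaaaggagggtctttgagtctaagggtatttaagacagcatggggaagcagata
Chi3l4, mm9 chr3:106022426-106022625, minus strand: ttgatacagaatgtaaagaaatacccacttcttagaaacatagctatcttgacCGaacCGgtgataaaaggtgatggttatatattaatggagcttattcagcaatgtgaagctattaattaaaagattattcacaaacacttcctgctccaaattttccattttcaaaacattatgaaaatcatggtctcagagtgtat

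All 4 stretches lie below the median GC content of 58% over such stretches. They hold 12 CpG at Sall1, 5 at Bcl11b, 2 at Chi3l4 and 1 at Coil. Over 13800 tested windows with an exact annotated start, the same 200 bases held a median of 9 CpG, and 94.8% held at least 1. Over the whole windows, GC content was 59.3% at Sall1, 57.6% at Bcl11b, 43.1% at Coil and 34.4% at Chi3l4, against a median of 47.4% over all tested windows. The Chi3l4 window, of a chitinase-like gene, had an area of 44.5 in the Ezh1 KO and 53.4 in WT, a log2 ratio of -0.26. All log2 ratios of the area are of the value plus 1, Ezh1 KO over WT.

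The height of 1 read in the files corresponds to 87.1 M reads in the Ezh1 KO library and 79.7 M in WT, and a median tested window holds 212 and 184 read equivalents in that order. Ezh1 RNA, given in the files as coverage per M reads at an exon's highest point averaged across exons, was 0.196 in the Ezh1 KO and 1.05 in WT. As the median across exons, Ezh1 was at 0.0335 in the Ezh1 KO and 0.960 in WT. CD4 T cell markers were at 1 or more in both RNA libraries for 13 of 13 genes, and their sum was 240 in the Ezh1 KO and 272 in WT. Markers of B cells (7 genes), of myeloid and dendritic cells (9) and of erythroid cells (3) had no member at 1 in either library. Of 5 NK cell markers 1 reached it in each library, and of 2 CD8 T cell markers 0 did in the Ezh1 KO and 1 in WT. An input or a spike-in was not used here, and values are relative to the rest of each library. In bulk chromatin, a mark in fewer cells and less mark per cell cannot be told apart.

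H3K27me3 over promoters that carry the mark was higher in the Ezh1 KO than in WT. Background windows were those of genes in the upper 1 of 3 equal classes of WT RNA, and a window was called marked from 4 times their median area in WT, a limit of 40.6. Over the 2231 marked windows the median area was 64.2 in the Ezh1 KO and 51.5 in WT. The median log2 ratio was 0.29, or 1.22-fold. Of them, 2068 (92.7%) were higher in the Ezh1 KO and 163 were lower, beside 64.2% higher over all tested windows. Over all 7077 background windows, untested ones included, the median area was 9.82 in the Ezh1 KO and 10.1 in WT. Of the 6890 tested background windows, 47.6% were higher. Within a library, the marked median was 6.54 times the background median in the Ezh1 KO and 5.08 times in WT.

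The difference grew with the level of the mark. Windows with a mean area of 5 to 10 had a median log2 ratio of -0.05, and 41.1% of them were higher in the Ezh1 KO. From 15 to 20 the median was 0.11, from 30 to 40 it was 0.25, and from 60 to 80 it was 0.33, where 95.8% were higher. The 108 windows above 80 had a median log2 ratio of 0.32, with a median area of 95.4 in the Ezh1 KO and 76.1 in WT. The mean of both libraries sets these levels, so no library alone decides where a window falls.

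Applying the same rule within each library, 3151 windows (17.5%) were marked in the Ezh1 KO and 2231 (12.4%) in WT. Of these, 938 were marked in the Ezh1 KO alone and 18 in WT alone. The 938 were not bare in WT: their median area was 45.3 in the Ezh1 KO and 35.9 in WT, and the lowest WT area among them was 24.4. They were selected as high in the Ezh1 KO, so nothing is read from the direction of their difference. The WT limit was 40.6.

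**Figure D1:**
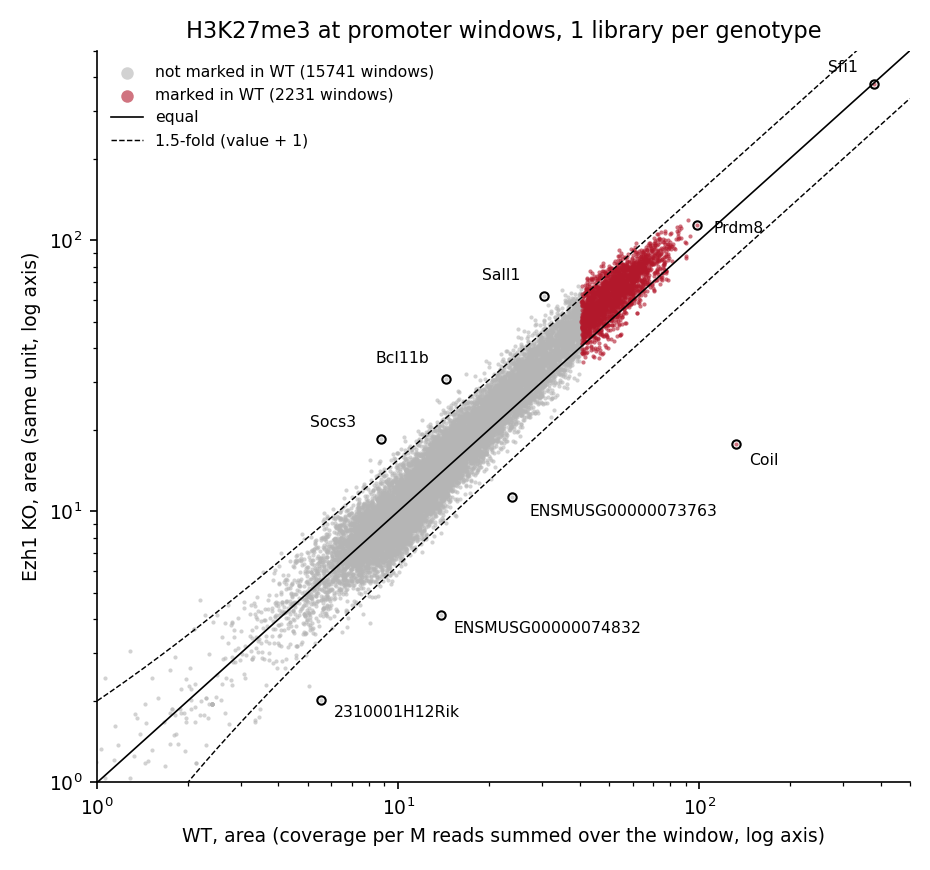
H3K27me3 area of each promoter window in the Ezh1 KO (y) and in WT (x), in coverage per M reads on log axes, with windows under 1 outside the axes. Red points are the 2231 windows marked in WT, the solid line is equality and the dashed lines are 1.5-fold; most red points lie above the solid line, while Coil lies far below it.

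Differences between single windows were small. At least 2-fold higher in the Ezh1 KO were 2 windows (0.0111% of those tested), and at least 2-fold lower were 4 (0.0223%). At 1.5-fold, 347 were higher (1.93%) and 46 lower (0.256%). The balance turned under other scalings: 102 were higher and 130 lower with TMM-like scaling (trimmed mean of M values), 100 and 130 in that order with the median of ratios, and 4 and 922 with the marked windows set equal. Overlapping windows share reads, and the 347 merge into 337 separate regions and the 46 into 41. Of the 347, 94 were marked in WT, 29 were background windows and 225 were neither. Background is set by RNA and marking by area, so a window can be both. Their median area was 45.8 in the Ezh1 KO and 28.5 in WT. The 46 lower windows had little signal in either library, with a median area of 5.56 in the Ezh1 KO and 9.37 in WT, and Coil was the only one marked in WT.

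The log2 ratio followed the GC content of the window. Across all tested windows Spearman's rho between the 2 quantities was 0.57, across the marked ones 0.77, and between the ratio and CpG density across the marked ones 0.35. These are descriptions across windows of the same 2 libraries. The lowest GC class, up to 41.3% GC, held only 32 marked windows, of which 37.5% were higher. Their median log2 ratio was -0.07, with a median area of 49.1 in the Ezh1 KO and 48.4 in WT. The 459 marked windows of the highest class, from 53.6% GC, had a median log2 ratio of 0.47. Their median area was 72.2 in the Ezh1 KO and 50.5 in WT. Background windows moved the same way, with medians of -0.16 in the lowest class and 0.19 in the highest.

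Within each of the 10 GC classes the marked windows lay above the background windows, by 0.10 on the log2 scale in the lowest class and by 0.28 in the highest. Of the 347 windows at least 1.5-fold higher, 250 fell in the highest GC class. Centring each ratio on the median of windows of like GC content, a choice made after seeing the data, left a median of 0.08 over the marked windows and of -0.11 over background windows. On that scale 11 windows passed 1.5-fold upward (0.0612%), 120 passed it downward (0.668%), and 3 passed 2-fold downward (0.0167%). How far GC content plays a part in the differences was not tested.

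**Figure D2:**
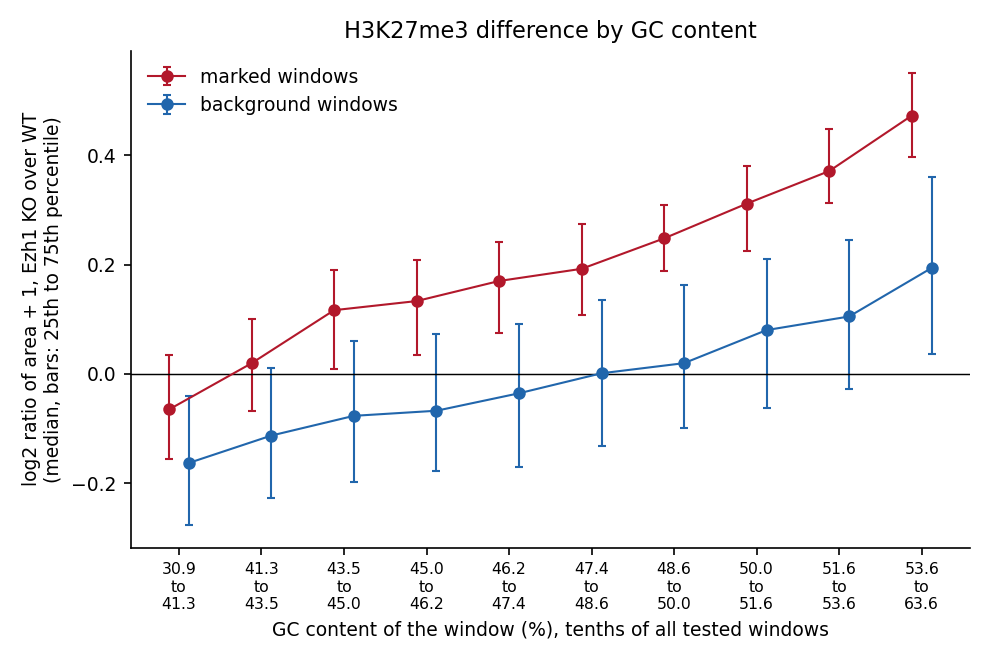
Median log2 ratio of the area, Ezh1 KO over WT, by GC content of the window in 10 equal classes, with bars over the 25th to 75th percentile, for marked (red) and background (blue) windows. Both series climb with GC content, the marked ones between -0.07 and 0.47, and lie 0.10 to 0.28 apart. The lowest class holds 32 marked windows.

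The largest difference upward was at Bcl11b, the zinc finger transcription factor of T cell commitment (mm9 chr12:109238812-109244812). Its area was 30.7 in the Ezh1 KO and 14.5 in WT, a log2 ratio of 1.04. The exact 95% counting interval, of the ratio without the added 1, was 0.84 to 1.34, and like all those given here it covers counting error only. In the libraries of the other genotypes the Bcl11b window was at 34.7 in the double KO and 23.8 in the Ezh2 KO, so WT was the lowest of the 4. Its RNA was 7.72 in the Ezh1 KO and 6.62 in WT. Centred on GC its log2 ratio was 0.59.

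Sall1, a zinc finger factor of kidney and limb development (chr8:91565061-91571061), had an area of 62.1 in the Ezh1 KO and 30.5 in WT, with a log2 ratio of 1.00 and a counting interval of 0.86 to 1.20. Socs3, an inhibitor of cytokine receptor signalling through STAT3 (chr11:117828361-117834361), had 18.4 in the Ezh1 KO and 8.77 in WT, with a log2 ratio of 0.99 and a counting interval of 0.75 to 1.40. Their windows were also higher in the double KO than in the Ezh2 KO, with 50.9 and 30.9 at Sall1 and 19.8 and 11.9 at Socs3 in that order. The next in order was Col11a2, a cartilage collagen chain, at 52.3 in the Ezh1 KO and 27.6 in WT. The transcription factor Sox3 was at 32.0 in the Ezh1 KO and 16.8 in WT. Sox10, a neural crest factor, was at 65.3 in the Ezh1 KO and 34.9 in WT. Sall1, Col11a2, Sox3 and Sox10 had RNA under 1 in both libraries, and Socs3 had RNA of 2.90 in the Ezh1 KO and 2.58 in WT.

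Sncg and Mmrn2, whose windows overlap and share reads, were at 25.8 and 25.2 in the Ezh1 KO and at 13.5 and 13.7 in WT. Myo15b had 46.9 in the Ezh1 KO and 25.002 in WT, and Tmem132e 57.7 in the Ezh1 KO and 31.4 in WT. Rin1, a Ras effector, had 35.9 in the Ezh1 KO and 19.6 in WT. Gp1bb, a chain of the platelet von Willebrand factor receptor, had 77.0 in the Ezh1 KO and 43.5 in WT. Prdm16, a factor of brown fat and of haematopoietic stem cells, had 50.6 in the Ezh1 KO and 28.6 in WT. Zcchc12 stood apart by its GC content of 49.4%, the lowest of these 15: its area was 15.5 in the Ezh1 KO and 8.04 in WT, and its log2 ratio stayed at 0.67 when centred on GC. Nr2f6, an orphan nuclear receptor, was at 21.7 in the Ezh1 KO and 12.01 in WT but at 10.1 in the double KO and 12.8 in the Ezh2 KO.

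**Figure D3:**
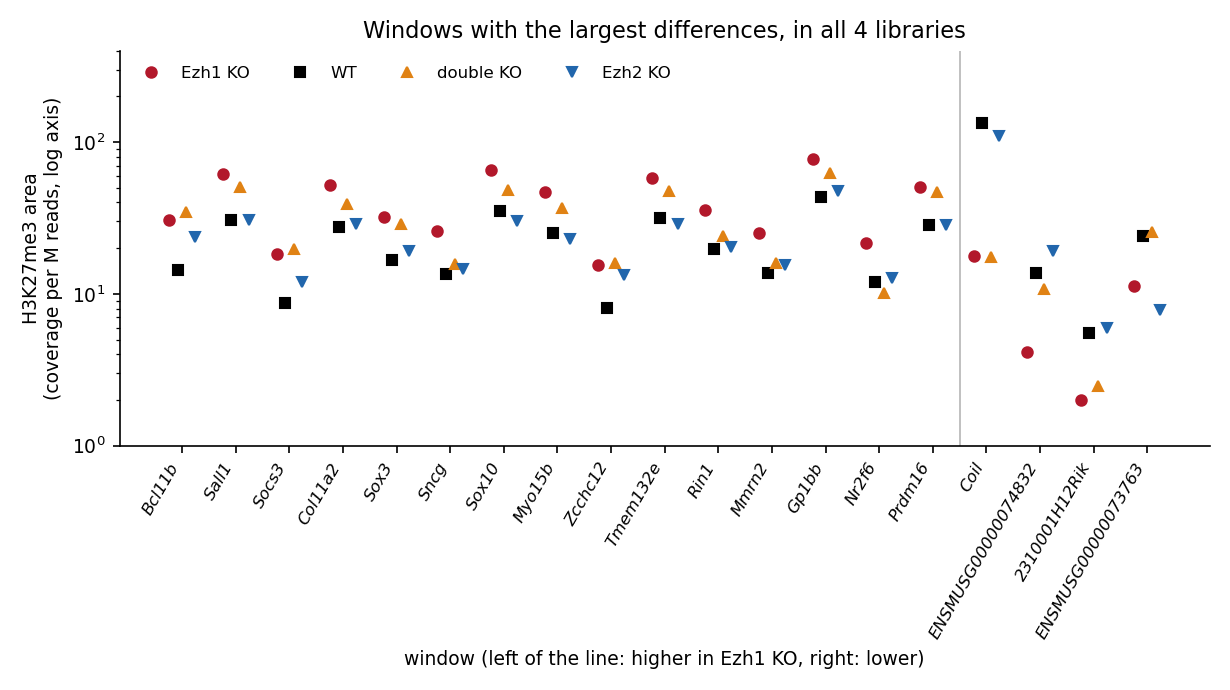
H3K27me3 area, in coverage per M reads on a log axis, in each of the 4 libraries, for the 15 windows with the largest difference upward in the Ezh1 KO at an area of 10 or more, and for the 4 at least 2-fold lower. The Ezh1 KO (red circles) lies above WT (black squares) left of the line, and at Coil the Ezh1 KO and the double KO lie together far below WT and the Ezh2 KO.

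Coil, which encodes the Cajal body protein coilin (chr11:88828566-88834566), held the second highest area of all windows in WT. Its area was 17.7 in the Ezh1 KO and 132.8 in WT, a log2 ratio of -2.84 with a counting interval of -3.10 to -2.71. In the double KO it was 17.5 and in the Ezh2 KO 109.9, so both libraries from Ezh1 -/- cells were low and both others high. The peak gave the same picture, with 0.200 in the Ezh1 KO and 1.96 in WT. Its RNA was 0.415 in the Ezh1 KO and 0.502 in WT. The 2 nearest windows did not share the difference to this size: Scpep1, 14.8 kb before Coil, had 9.88 in the Ezh1 KO and 13.2 in WT, and Trim25, 29.1 kb after it, had 5.58 in the Ezh1 KO and 6.26 in WT. Coil lies 12.3 Mb from Ezh1 on the same chromosome.

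The other windows at least 2-fold lower had weaker signal. ENSMUSG00000074832 on chromosome 13 was at 4.16 in the Ezh1 KO and 13.8 in WT, with 10.7 in the double KO and 19.3 in the Ezh2 KO. At 2310001H12Rik on chromosome 5 the area was 2.01 in the Ezh1 KO and 5.55 in WT, with 2.46 in the double KO and 5.95 in the Ezh2 KO. At both of these windows, as at Coil, both libraries from Ezh1 -/- cells lay below both others. ENSMUSG00000073763 on chromosome 4 had 11.3 in the Ezh1 KO and 23.9 in WT, but 25.5 in the double KO and 7.87 in the Ezh2 KO.

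Below these came windows with smaller differences. Prdx6, an antioxidant enzyme, had 7.07 in the Ezh1 KO and 11.99 in WT, and Ergic2, of vesicle transport, had 5.97 in the Ezh1 KO and 10.1 in WT. Aig1 had 8.30 in the Ezh1 KO and 13.8 in WT. Cyb5r4, a reductase, had 13.2 in the Ezh1 KO and 20.4 in WT. Windows of near-identical families among them (Hist1h2ab, Hist1h3b, Gimap9, Tas2r106 and Vmn1r67) are uncertain, since per the labels' protocols only reads with a single location were kept.

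At the top of the scale, Sfi1, a centrosome gene, had the highest area of all windows, at 376 in the Ezh1 KO and 381 in WT, and differed little in either of the other libraries, with 388 in the double KO and 410 in the Ezh2 KO. Next to it in the Ezh1 KO came Dmwd at 118.6, against 91.6 in WT, and Prdm8, a neural factor, at 114.1 against 98.1 in WT. Osr2 and Hmx2, both developmental transcription factors, had 112.5 and 112.2 in the Ezh1 KO, against 86.5 and 84.2 in WT. Olig3, a spinal cord factor, had 104.1 in the Ezh1 KO and 93.4 in WT. The 5 windows named after Sfi1 lay 1.11- to 1.33-fold higher in the Ezh1 KO. They were selected as the highest windows of either library, so nothing is read from the direction of their difference. Coil, the second highest window in WT, lay far lower in the Ezh1 KO and is not among them.

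The direction of a list's median depends on how the libraries are scaled: setting the marked windows equal shifts all ratios by -0.32, and 11 of 37 list medians then keep their sign, against 27 when centred on GC. The counts below are to be read beside all tested windows, of which 64.2% were higher and 1.93% at least 1.5-fold higher. Over marked windows, which make up most of some lists, these shares were 92.7% and 4.21%. Among developmental signals, the ligands had the highest median of the 37 lists with tested windows. Of 47 tested windows of Wnt, BMP, Hedgehog and FGF ligands, 45 were higher in the Ezh1 KO and 11 at least 1.5-fold higher, with a median log2 ratio of 0.47 beside 0.09 over all tested windows. Bmp7, a BMP ligand of kidney and eye development, was at 50.3 in the Ezh1 KO and 30.4 in WT. Inhbb, an activin subunit, was at 51.7 in the Ezh1 KO and 31.6 in WT, and Wnt4 at 59.4 in the Ezh1 KO and 36.8 in WT. The lower windows were Fgf20, with 10.5 in the Ezh1 KO and 13.9 in WT, and Inhba, with a log2 ratio of -0.01. The ligand windows had a median GC content of 54.0%, and centred on GC their median was 0.18.

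Receptors and antagonists of the same pathways had a median log2 ratio of 0.35, with 29 of 30 windows higher and 1 past 1.5-fold. That one was Fzd8, a Wnt receptor, at 48.7 in the Ezh1 KO and 31.9 in WT. Chrd, the BMP antagonist chordin, was at 77.0 in the Ezh1 KO and 53.5 in WT, whereas the Wnt receptors Fzd3 and Fzd6 were at 75.7 and 48.9 in the Ezh1 KO and at 75.5 and 49.3 in WT. All 21 windows of Notch receptors, ligands and targets were higher, with a median of 0.38. Hes2, a target-type bHLH repressor, had 74.3 in the Ezh1 KO and 46.3 in WT, and the ligand Dll4 had 75.6 in the Ezh1 KO and 49.0 in WT. Centred on GC, the Notch median was 0.02.

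Developmental transcription factors were higher in every tested window of both lists, beside 64.2% of all tested windows and 92.7% of marked windows. Most of these windows were marked in WT, 55 of 61 in the first list below and 48 of 57 in the second. Of the homeobox factors outside the Hox clusters and the Pax factors, 61 of 61 tested windows were higher and 10 at least 1.5-fold. That compares with 1.93% of all tested windows and 4.21% of marked ones past 1.5-fold. The list's median log2 ratio was 0.43, beside 0.29 over marked windows. Tlx3, a factor of sensory neurons, had 72.3 in the Ezh1 KO and 42.3 in WT. Nkx6-2 had 67.5 in the Ezh1 KO and 39.6 in WT, and Pax2, of kidney and optic development, had 67.8 in the Ezh1 KO and 40.8 in WT. The lowest ratios were at Lhx4, with 77.4 in the Ezh1 KO and 72.4 in WT, and Lhx2, with 97.9 in the Ezh1 KO and 90.3 in WT. Of the Sox, Fox, Tbx, Gata and bHLH factors, 57 of 57 were higher and 9 past 1.5-fold, with a median of 0.41. Their lowest ratio was at Foxd1, with 68.5 in the Ezh1 KO and 65.2 in WT. Centred on GC the 2 lists had medians of 0.12 and 0.13, beside 0.08 over all marked windows.

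The Hox clusters encode the body-axis factors. In HoxA all 11 windows were higher, with log2 ratios between 0.17 at Hoxa13 and 0.40 at Hoxa11, which had 106.8 in the Ezh1 KO and 80.8 in WT. In HoxB 9 of 10 were higher with a median of 0.39: Hoxb7 had 72.6 in the Ezh1 KO and 44.9 in WT, and Hoxb4 had 33.2 in the Ezh1 KO and 34.7 in WT. In HoxD all 9 were higher, with Hoxd12 at 97.9 in the Ezh1 KO and 68.3 in WT and Hoxd13 at 81.0 in the Ezh1 KO and 76.3 in WT. The 9 HoxC windows were listed at 0 and not tested. Neighbouring Hox windows lie close together, so these are not independent values. Centred on GC, the medians were 0.09 in HoxA, 0.16 in HoxB and 0.09 in HoxD.

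**Figure D4:**
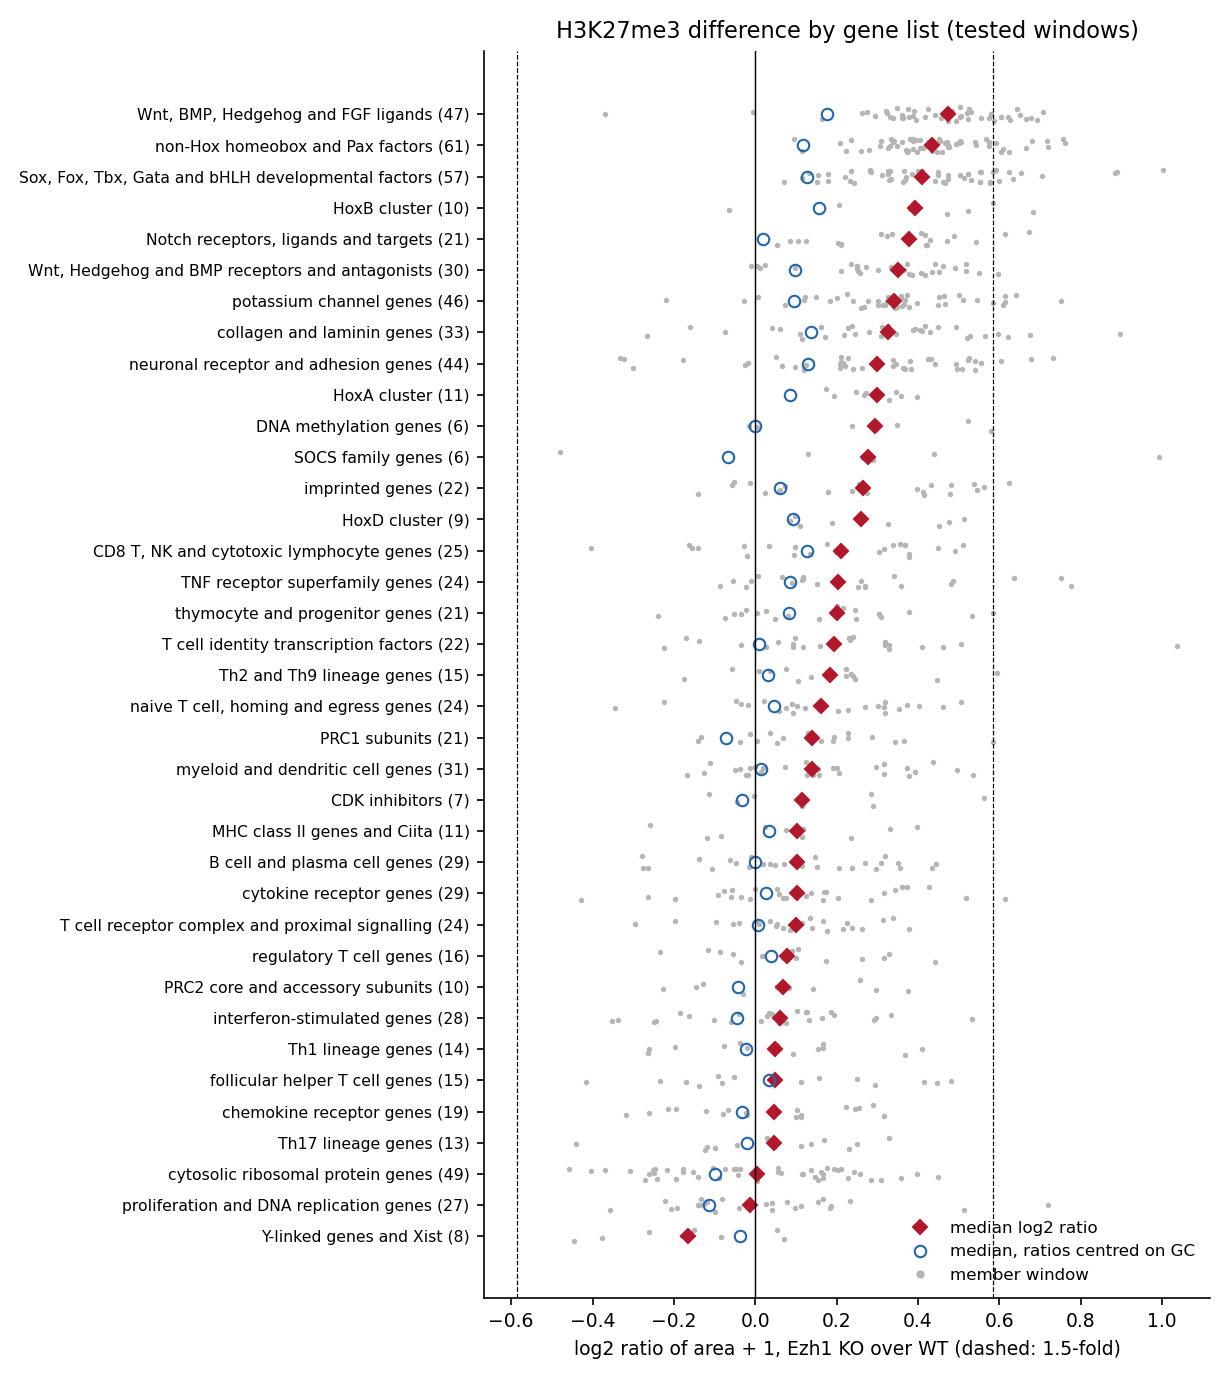
Log2 ratio of the area, Ezh1 KO over WT, for the tested windows of each gene list (grey points, number of windows in brackets), with the list's median as deposited (red diamonds) and after centring on GC content (blue circles). Ligands and developmental factors stand at the top with medians up to 0.47, and the blue circles of all lists fall between -0.11 and 0.18.

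Structural and neural genes followed. Collagen and laminin genes had a median log2 ratio of 0.32, with 30 of 33 windows higher and 4 past 1.5-fold. Beside Col11a2, the laminin chain Lama5 had 59.2 in the Ezh1 KO and 36.7 in WT, while Lama2, an unmarked window of low GC content, had 10.8 in the Ezh1 KO and 13.1 in WT. Potassium channel genes had a median of 0.34 with 44 of 46 higher and 5 past 1.5-fold. Kcnj4, an inward rectifier, had 91.9 in the Ezh1 KO and 54.2 in WT. Kcna3, the voltage-gated channel of T cells, had 10.2 in the Ezh1 KO and 12.1 in WT. Neuronal receptor and adhesion genes had a median of 0.30, with 38 of 44 higher. Grik3, a kainate receptor, had 61.6 in the Ezh1 KO and 36.7 in WT.

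Of the genes of the Polycomb system itself, PRC2 subunits carried little of the mark. None of 10 tested PRC2 subunit windows was marked in WT, 6 were higher and 4 lower, and the median log2 ratio was 0.07. The Ezh1 window was at 19.1 in the Ezh1 KO and 17.2 in WT, with a counting interval of -0.11 to 0.41, and that of Ezh2 at 10.5 in the Ezh1 KO and 12.5 in WT, with an interval of -0.58 to 0.08. Both intervals span 0. Phf19, a Polycomb-like accessory subunit, was at 14.1 in the Ezh1 KO and 10.6 in WT, and Suz12 at 12.7 in the Ezh1 KO and 13.0 in WT. Of PRC1 subunits, 17 of 21 windows were higher, beside 64.2% of all tested windows, and 1 was marked in WT. Their median log2 ratio was 0.14, and turned to -0.07 when centred on GC and to -0.13 when centred on GC and level. Cbx8, a chromodomain reader of the mark, was at 58.1 in the Ezh1 KO and 38.5 in WT, and Pcgf2 at 48.8 in the Ezh1 KO and 37.6 in WT.

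Among the CDK inhibitors, classical Polycomb targets, Cdkn2a was at 61.7 in the Ezh1 KO and 50.5 in WT. Its neighbour Cdkn2b was at 72.1 in the Ezh1 KO and 74.4 in WT. Cdkn1c, an imprinted inhibitor, was at 43.5 in the Ezh1 KO and 29.1 in WT, the largest ratio of the 7. Over the whole list of imprinted genes 18 of 22 windows were higher, with a median of 0.26. Igf2, the growth factor, was at 40.3 in the Ezh1 KO and 25.8 in WT. Of the DNA methylation genes, Dnmt3l was at 21.6 in the Ezh1 KO and 14.1 in WT and Dnmt3b at 16.9 in the Ezh1 KO and 11.5 in WT, while the maintenance enzyme gene Dnmt1 was at 9.09 in the Ezh1 KO and 9.21 in WT.

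Transcription factors of T cell identity had a median log2 ratio of 0.19, with 18 of 22 windows higher and Bcl11b alone past 1.5-fold. Tcf7, the factor TCF-1 of naive and memory T cells, was at 26.9 in the Ezh1 KO and 18.6 in WT, with 36.4 in the double KO and 24.2 in the Ezh2 KO. Foxp1, a factor of T cell quiescence, was at 9.66 in the Ezh1 KO and 11.4 in WT. Genes of the T cell receptor complex had a median of 0.10, and none of 24 passed 1.5-fold, where 1.93% of all tested windows did. The phosphatase CD45 gene Ptprc was at 9.16 in the Ezh1 KO and 10.6 in WT, and Zap70 at 11.2 in the Ezh1 KO and 8.82 in WT. Naive and homing genes had a median of 0.16, with Klf2, the quiescence and egress factor, at 9.80 in the Ezh1 KO and 6.85 in WT. Centred on GC, Tcf7 had a ratio of 0.06 and Klf2 of 0.01.

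At genes of effector fates the medians lay close to that of all windows. They were 0.05 for Th1 genes, 0.05 for Th17 genes, 0.05 for follicular helper genes, 0.08 for regulatory T cell genes and 0.18 for Th2 and Th9 genes. Eomes, a factor of cytotoxic and memory cells, was at 80.8 in the Ezh1 KO and 62.4 in WT. Il13 was at 28.5 in the Ezh1 KO and 18.6 in WT, the only window of these 5 lists past 1.5-fold, where 1.93% of all tested windows passed, and Il4 in the same locus was at 21.1 in the Ezh1 KO and 15.2 in WT. Foxp3, the regulatory T cell factor, was at 8.67 in the Ezh1 KO and 9.48 in WT. Bcl6, of follicular helper cells, was at 6.92 in the Ezh1 KO and 9.57 in WT. Stat3 was at 7.68 in the Ezh1 KO and 10.8 in WT, at an unmarked window 0.29 Mb from Ezh1.

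For genes of other blood lineages the medians were 0.21 for CD8 T, NK and cytotoxic genes, 0.10 for B cell genes, 0.14 for myeloid genes and 0.20 for thymocyte and progenitor genes, and no window of these lists passed 1.5-fold. Gzmb, a cytotoxic protease, was at 25.1 in the Ezh1 KO and 18.1 in WT. Gata2, a factor of progenitors, was at 65.0 in the Ezh1 KO and 43.0 in WT, and Cebpa, of myeloid cells, at 54.5 in the Ezh1 KO and 37.3 in WT. The plasma cell proteoglycan gene Sdc1 was at 47.6 in the Ezh1 KO and 34.7 in WT, but at 24.8 in the double KO and 24.4 in the Ezh2 KO. MHC class II genes had a median of 0.10, with H2-Ab1 at 30.4 in the Ezh1 KO and 28.0 in WT.

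Of the TNF receptor windows, 3 of 24 were at least 1.5-fold higher, beside 1.93% of all tested windows. Tnfrsf25, a death receptor expressed by T cells, was at 31.5 in the Ezh1 KO and 18.0 in WT, Ltbr at 49.1 in the Ezh1 KO and 28.8 in WT, and Tnfrsf1a at 35.5 in the Ezh1 KO and 22.5 in WT. Centred on GC these 3 had log2 ratios of 0.33, 0.44 and 0.39 in that order, and none of them was then past 1.5-fold. Of 29 cytokine receptor windows 1 passed, Il22ra1, at 46.98 in the Ezh1 KO and 30.3 in WT. Il2rb, the shared beta chain of the IL-2 and IL-15 receptors, was at 18.0 in the Ezh1 KO and 12.3 in WT, and Il2rg, the common gamma chain, at 3.79 in the Ezh1 KO and 5.44 in WT. None of 19 chemokine receptor windows passed. Among the 6 tested SOCS genes, Socs3 stood alone past 1.5-fold, and Socs4 was lower, at 7.33 in the Ezh1 KO and 10.6 in WT.

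Cytosolic ribosomal protein genes had a median area of 8.95 in the Ezh1 KO and 9.24 in WT. Their median log2 ratio was 0.00, and no window of 49 was past 1.5-fold. Proliferation genes had a median of -0.01. There 2 cyclin genes had the largest ratios: Ccnd1, the D-type cyclin of many epithelia, was at 53.7 in the Ezh1 KO and 32.2 in WT, and Ccnd2, the cyclin of lymphocytes, at 17.4 in the Ezh1 KO and 11.9 in WT. Interferon-stimulated genes had a median of 0.06, with Oas3 at 13.6 in the Ezh1 KO and 9.11 in WT and Oasl1 at 13.7 in the Ezh1 KO and 17.7 in WT.

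The 347 higher windows had a median RNA of 0.0137 in the Ezh1 KO and 0.0138 in WT, and 22 of them were at 1 or more in WT, beside 26.5% of all tested windows with RNA. Of the 46 lower windows, 27 were. Over the 22 expressed genes with a higher window, the median log2 ratio of RNA, on the value plus 0.1, was -0.07. Over the 4803 tested windows with RNA at 1 or more in the higher library it was -0.13. Besides Bcl11b and Socs3, the 22 include Thy1, Tcf20 and Smad7, chosen here after their values were seen. Thy1, the surface antigen Thy-1, had an area of 26.6 in the Ezh1 KO and 17.3 in WT, with RNA of 10.8 in the Ezh1 KO and 12.2 in WT. Tcf20, a transcriptional coregulator, had 35.8 in the Ezh1 KO and 22.1 in WT, with RNA of 4.98 in the Ezh1 KO and 5.64 in WT. Smad7, the inhibitor of TGF-beta signalling, had 9.58 in the Ezh1 KO and 5.796 in WT, with RNA of 4.02 in the Ezh1 KO and 3.82 in WT. Over 5 equal classes of WT RNA, the median log2 ratio of the area was 0.22 in the lowest and -0.04 in the highest.

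The difference was spread over the autosomes. Median log2 ratios by autosome ran from 0.01 on chromosome 13 to 0.17 on chromosome 15, and once centred on GC they lay between -0.03 and 0.03. The 670 windows on X had a median area of 6.38 in the Ezh1 KO and 6.602 in WT, and none was marked in WT. On Y, 9 tested windows had a median log2 ratio of -0.18, and of -0.05 when centred on GC. The 8 of them in the list of Y-linked genes had areas of 0.813 to 8.69 in the Ezh1 KO and 1.17 to 9.88 in WT. Over chromosome 11, 1449 windows had a median of 0.13, with 37 past 1.5-fold upward and 4 downward. Within 5 Mb of Ezh1, 280 windows had a median of 0.15, with 7 past 1.5-fold upward and none downward. The largest of these were Adam11, at 54.9 in the Ezh1 KO and 32.2 in WT, Pnmt, the adrenaline-forming enzyme, at 32.5 in the Ezh1 KO and 19.2 in WT, and Prr15l, at 44.2 in the Ezh1 KO and 27.02 in WT.

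The double KO and the Ezh2 KO form a second pair of libraries that differ by label in Ezh1, and share no library with the first. Over the same marked windows the double KO was higher than the Ezh2 KO, with a median log2 ratio of 0.23 and 91.3% of windows higher. Of the 347 windows at least 1.5-fold higher in the Ezh1 KO than in WT, 330 were higher in the double KO than in the Ezh2 KO, with a median log2 ratio of 0.36 and 21 past 1.5-fold. Over all tested windows 58.2% were higher in this second pair and 0.534% were past 1.5-fold, and in the highest GC class 79.6% were higher. Of the 46 lower windows, 36 were lower in the second pair. Across all tested windows the ratios of the pairs had a Spearman's rho of 0.52, and of 0.43 with both centred on GC. In the second pair the ratio also followed GC content, with a rho of 0.34 across all tested windows. The points are windows, not replicates, and depth differed in the same direction in both pairs, with 88.2 M reads in the double KO and 78.2 M in the Ezh2 KO. The part of depth in these values was not tested.

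**Figure D5:**
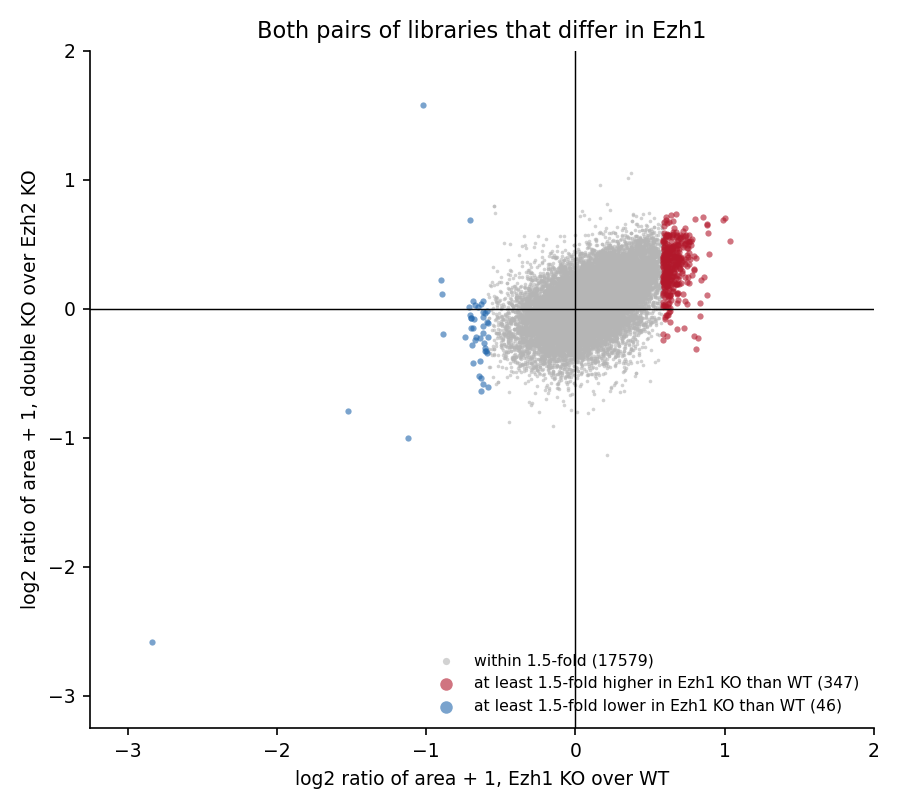
Log2 ratio of the area for each tested window, Ezh1 KO over WT (x) and double KO over Ezh2 KO (y). Of the 347 red windows, at least 1.5-fold higher in the Ezh1 KO than in WT, 330 lie above 0 on the y axis; of the 46 blue ones 36 lie below it, with Coil at the lower left and ENSMUSG00000073763 at the upper left.

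The peak gave a similar picture on its smaller scale. Over marked windows the median peak was 0.605 in the Ezh1 KO and 0.501 in WT, and over background windows 0.141 in the Ezh1 KO and 0.139 in WT, so that marked windows stood 4.30 times above background in the Ezh1 KO and 3.60 times in WT. With 1 added to values this small, no peak was 1.5-fold higher and 1 was lower (0.00556%), at Coil. With 0.1 added instead, 4 peaks were at least 2-fold higher (0.0223%) and 280 at least 1.5-fold higher (1.56%). Of the 4, Myo15b had a peak of 0.791 in the Ezh1 KO and 0.293 in WT, and Gpc3, a glypican on X, had 0.506 in the Ezh1 KO and 0.198 in WT. The others, ENSMUSG00000073726 and ENSMUSG00000078514, are the same stretch with starts 1 base apart. The shape of the signal over marked windows differed little, with the highest bin at 2.22 times the mean bin in the Ezh1 KO and 2.27 times in WT.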

How the data were processed

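H3K27me3 ChIP-seq values of the Ezh1 KO and WT libraries were compared, with the double KO and Ezh2 KO libraries as a second pair. Per the file headers, the deposited ChIP signal is coverage per M reads, summed (area) or at its highest bin (peak) over a promoter window. The RNA files hold deposited coverage per M reads over exons. Per the labels' protocols, chromatin was sonicated, and reads were aligned to mm9 with Bowtie 0.12.7, with up to 2 errors and a single location. The depth of each library was read from the smallest step between deposited values.

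Log2 ratios were taken with 1 added to both values for windows at 1 or more in the higher library, and windows past 2-fold or 1.5-fold were counted. Counting intervals are exact 95% binomial intervals on read equivalents, and cover counting error only. GC and CpG content came from the mm9 genome. Scripts ran under Python 3.11.15 with numpy 2.4.6, pandas 2.3.3, scipy 1.17.1, pysam 0.24.0 and matplotlib 3.10.9, and were tested on simulated data. Of 17771 windows with an annotated strand, 80.0% were centred within 1 bp of an annotated start.

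Windows named in the text were Ezh1 and Ezh2, those past 2-fold in area or peak, up to 15 with the largest ratio in each direction at an area of 10 or more, the 5 highest of each library, the 3 highest and 3 lowest ratios within 5 Mb of Ezh1, and from each of 38 gene lists the 3 highest and 2 lowest ratios, or every member of a list of 12 or fewer. Outside that rule, and chosen after their values were seen, are the neighbours of Coil, the windows at the limit of 1, Chi3l4, Thy1, Tcf20 and Smad7. The windows and lists were chosen with earlier results of these data known. Alternatives were other scalings, pseudocounts, minima, definitions of a marked window, and the peak. RNA of the double KO and the Ezh2 KO was not used here. Overlapping windows share reads.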

Additional observations from a re-analysis of the deposited data

Results flagged for a closer look

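The window of ENSMUSG00000073763 moved in opposite directions in the pairs of libraries that differ in Ezh1. Its log2 ratio was -1.02 between the Ezh1 KO and WT, with areas of 11.3 in the Ezh1 KO and 23.9 in WT, and 1.58 between the double KO and the Ezh2 KO, with areas of 25.5 in the double KO and 7.87 in the Ezh2 KO. With 1 library per genotype, the difference between the pairs was not tested.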

How the results depend on the processing

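No paired analysis was possible because the comparison of the Ezh1 KO with WT has 1 library a side. A fit of Ezh1 over all 4 libraries with Ezh2 status as a block was not run. For the same reason no replicate was left out. Centring on GC, centring on GC and level, and the peak with 0.1 added were chosen after seeing the data. Except where stated, the cause of a change was not tested.

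Beside 2 windows 2-fold higher, there were 0 with the trimmed mean of M values (TMM-like), median-of-ratios and equal-marked scalings, with 10 added, on the peak and under both centrings, 6 with 0.1 added and 4 on the peak with 0.1 added. Beside 4 windows 2-fold lower, there were 7 with marked windows set equal, 8 with 0.1 added, and 1 with 10 added or on either peak scale. Beside 347 windows 1.5-fold higher, there were 102 (TMM-like), 100 (median of ratios), 561 (background set equal), 4 (marked set equal), 62 (10 added), 0 (peak), 11 (GC) and 23 (GC and level). Beside 46 lower, there were 130, 130, 29, 922, 3, 1, 120 and 27 in the same order, 110 with 0.1 added and 28 on the peak with 0.1 added. On the peak itself, 0.1 in place of 1 gave 4 windows 2-fold higher in place of 0, 280 windows 1.5-fold higher in place of 0 and 28 lower in place of 1.

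The marked median of 0.29 was 0.24, 0.28 and 0.27 at 2, 3 and 6 times background, 0.32 and 0.31 when marked by the Ezh1 KO or by the mean, 0.19 under TMM-like and median-of-ratios scaling, 0.34 with background equal, 0.29 and 0.25 with 0.1 and 10 added, 0.093 and 0.22 on the peak with 1 and 0.1 added, and 0.082 centred on GC. Centred on GC and level it was -0.015, and by construction that centring removes any difference that follows the level. The enrichment of marked over background windows, 1.29 times as high in the Ezh1 KO as in WT, was 1.24, 1.28 and 1.27 times at 2, 3 and 6 times background, 1.28 when marked by the Ezh1 KO or by the mean, 1.28 with the windows up to the median area of all windows as background, 1.19 on the peak and 1.15 centred on GC. Of 37 list medians, 29 kept their sign under TMM-like scaling, 11 with marked windows set equal, 27 centred on GC and 22 centred on GC and level.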
